A study of Mus musculus with 48 samples.

Results

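RNA levels in whole lysates of mouse embryonic stem cells labelled Upf1 knockout were compared with those of HA-Tnrc6a cells without that label. The lysates (inputs) were sampled in a study of RNAs recovered with Tnrc6a, a GW182 protein of the silencing machinery, and the comparison asks which RNAs differ in amount before any recovery. Of the 48 libraries of the study, 12 inputs belong here, chosen by the genotype and fraction in their labels, with 3 of each genotype in each of experiments 3 and 4. All 12 come from 129S6/SvEvTac cells that carry a GFP reporter (GFP_5xT71BS), a stable FLAG-Cas9 transgene and an HA-AVI tag on Tnrc6a, and 6 of them are labelled Upf1-/- in addition. Cells were kept on gelatin in serum with LIF, and the groups differ by no treatment. How many clones stand behind a genotype is not given, so genotype and clone cannot be told apart, and p-values measure only the spread between the libraries of a group, which may be technical. Table columns numbered 1 to 3 were read as experiment 3 and columns 4 to 6 as experiment 4, which is inferred from the numbering. The averaged contrast is the same whichever block is which.

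Upf1 is an RNA helicase at the centre of nonsense-mediated mRNA decay (NMD), in which a ribosome that stops upstream of an exon junction complex, or far from the poly(A) tail, lets Upf1 be phosphorylated by the kinase Smg1 and recruits effectors such as the endonuclease Smg6 and the adaptor Smg5. Beside mutant messages, NMD is known to degrade spliced host transcripts of small nucleolar RNAs, messages with upstream reading frames such as Atf4, messages with poison exons that encode splicing factors, and the messages of several NMD factors themselves. In mouse embryonic stem cells the pathway has been tied to survival and to exit from pluripotency, with Gadd45b among its targets.

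Library totals were 15829009 to 19412035 counts in experiment 3 and 26647238 to 37179105 in experiment 4. One library stood apart: HA-Tnrc6a replicate 3 of experiment 3 differed from replicates 1 and 2 by a chi-square per degree of freedom of 34.29 and 28.91, against 2.662 between those, and gave 3.67% of its counts to transcripts resembling ribosomal RNA, against 0.163% and 0.326%. Leaving it out gave 10985 genes past the threshold in place of 11388, with 10 NMD factors, 12 snoRNA hosts and 25 stress response genes higher, as with it. Embryonic stem cell markers were abundant in all 12 inputs. The summed level of 8 of them, among them Pou5f1, Sox2, Nanog and Zfp42, was 6948 to 6991 CPM (counts scaled by library size) in HA-Tnrc6a and 6150 to 6189 CPM in labelled Upf1 knockout inputs of experiment 3, and 6838 to 6984 against 5995 to 6085 CPM in experiment 4.

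The targeted gene was examined first. Upf1 (ENSMUSG00000058301, chromosome 8, 70331493 to 70353423 in GRCm38.p6) stood at 84.0, 83.6 and 93.4 CPM in HA-Tnrc6a inputs and at 135, 137 and 138 CPM in labelled knockout inputs of experiment 3, and at 112, 108 and 111 against 153, 157 and 161 CPM in experiment 4. Every labelled knockout input thus had more Upf1 RNA than every HA-Tnrc6a input, with a log2 fold change of 0.58 ± 0.03 (SE derived from the F-test of the fit, 3 inputs per group; edgeR quasi-likelihood adjusted p = 1.17e-22). A mutation that ends the protein need not lower the message, and gene counts do not show where in the gene reads fall, so the mRNA level does not check the knockout, and each direction below refers to cells labelled Upf1 knockout. The gene overlaps Cers1 and Gdf1 in the annotation, and whether the authors counted by strand is not stated, so reads of overlapping genes cannot be told apart here or below. Tnrc6a was at -0.03 ± 0.03 (SE; edgeR adjusted p = 0.488) and did not pass the threshold. Ago2, the Argonaute protein that binds Tnrc6a, rose by 0.47 ± 0.03 (SE; edgeR adjusted p = 2.33e-20).

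In the average of both experiments 11388 of the 19444 tested genes (58.6%) had an edgeR adjusted p under 0.05, 5743 higher (29.5%) and 5645 lower (29%). Most of these differences were small. The median absolute log2 fold change of the genes that passed was 0.338, and 1026 genes (5.28%) changed by at least 2-fold, 424 higher (2.18%) and 602 lower (3.1%). Every count of list members below is to be read against these shares, and the lists were chosen with earlier results of these data known. Genes changed by at least 2-fold were less abundant, with a median average log2 CPM of 1.29 (higher) and -0.26 (lower), against 3.70 over all genes. The groups lay apart within both experiments in the same direction for 35.9% of all genes, and as 2 groups of 6 for 17.5%. Statements on overlap are to be read against these 2 shares. The effect differed between the experiments for 2253 genes (11.6%) in the edgeR interaction test. Protein-coding genes made up 261 of the 424 genes at least 2-fold higher (1.84% of 14180 tested) and long noncoding RNA genes 33 (4.9% of 674 tested). Of the 602 at least 2-fold lower, 466 were protein-coding (3.29%) and 27 long noncoding RNA genes (4.01%). Genes not matched to a biotype made up 113 of those higher and 95 of those lower (3.26% and 2.74% of 3470 tested). At any fold change, 23.6% of long noncoding RNA genes were higher and 21.2% lower.

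The messages of NMD factors themselves were mostly higher. Of 15 tested, 10 rose and 4 fell (66.7% and 26.7%, against 29.5% and 29% of all genes), with a median log2 fold change of 0.20 against -0.02 over all genes. Smg9 (ENSMUSG00000002210), a regulator of the Smg1 kinase, stood at 13.4, 12.9 and 13.6 CPM in HA-Tnrc6a and 35.2, 32.5 and 31.9 CPM in labelled knockout inputs of experiment 3, and at 16.6, 18.3 and 16 against 36.2, 36.4 and 40.3 CPM in experiment 4. The labelled knockout inputs had more Smg9 RNA in each experiment, with no overlap among the 12 (the groups lay apart in the same direction in both experiments for 35.9% of all genes), and the fold change of 1.24 ± 0.05 on the log2 scale (SE; edgeR adjusted p = 5.81e-25) was the largest of the list.

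The kinase and the effectors moved together. Smg1, the kinase that phosphorylates Upf1, was at 0.80 ± 0.06, the adaptor Smg5 at 0.75 ± 0.02, the endonuclease Smg6 at 0.73 ± 0.03, and Upf2, the partner that bridges Upf1 to the exon junction complex, at 0.68 ± 0.03 (log2 fold change ± SE; edgeR adjusted p between 2.45e-30 and 1.12e-06). Smg5 shows how narrow the groups were, with 151, 149 and 145 CPM against 257, 253 and 261 CPM in experiment 3 and 188, 184 and 188 against 309.8, 307 and 299.6 CPM in experiment 4. For each of these 4 genes and Upf1 the 6 labelled knockout inputs lay above the 6 HA-Tnrc6a inputs, which holds for 17.5% of all genes in 1 direction or the other. The Upf2 partners Upf3a and Upf3b rose less, at 0.20 and 0.13. The 4 that fell included the translation termination factors Gspt1, which is eRF3a, at -0.51 ± 0.02, and Etf1, which is eRF1, at -0.35 ± 0.02. Smg8, the partner of Smg9, was at -0.26 and Nbas at -0.20.

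**Figure D1:**
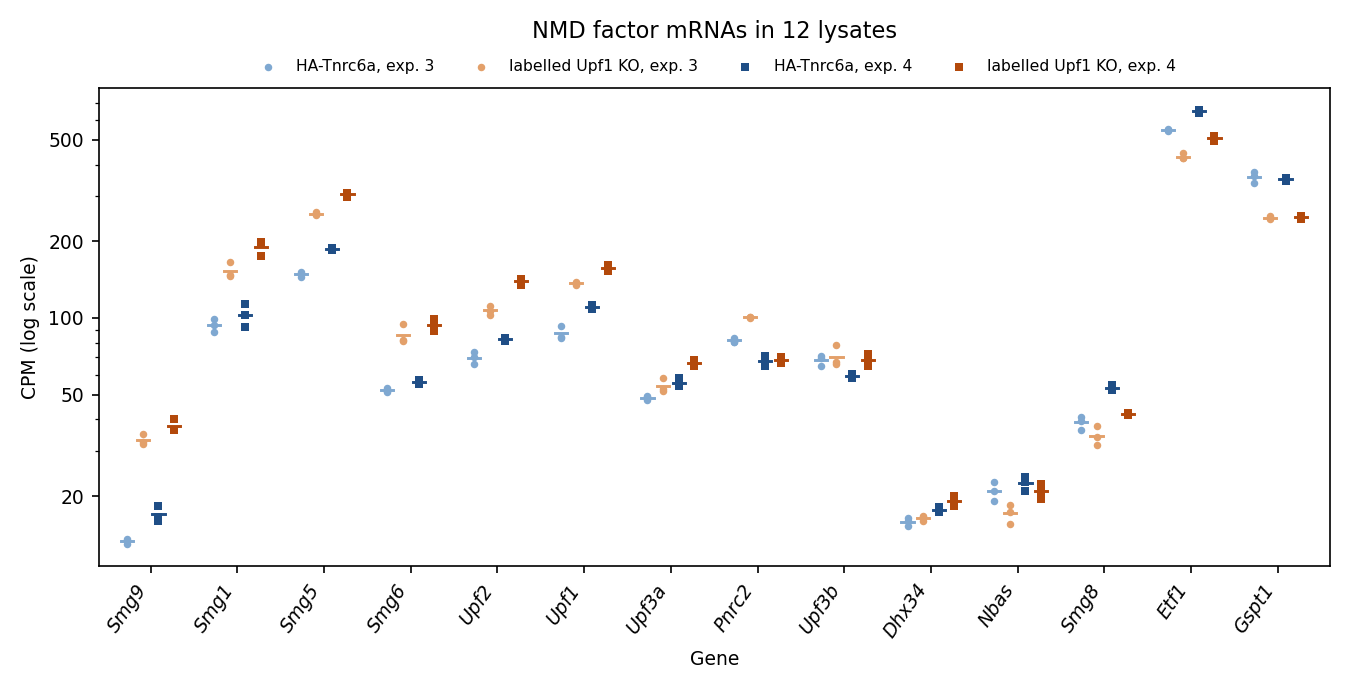
Level of 14 NMD factor messages in each of the 12 inputs, in CPM on a log scale. Points are libraries, short lines are group means, circles are experiment 3 and squares experiment 4, and blue is HA-Tnrc6a and orange labelled Upf1 knockout. Smg9, Smg1, Smg5, Smg6, Upf2 and Upf1 are higher in every orange library of an experiment, and Etf1 and Gspt1 are lower.

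The exon junction complex marks spliced junctions and lets NMD recognise an early stop. Of its 7 tested genes 2 rose and 4 fell. Magohb (ENSMUSG00000030188), a second copy of the core subunit Magoh, went from 7.02, 8.50 and 8.92 to 3.52, 3.74 and 4.70 CPM in experiment 3 and from 3.82, 3.57 and 4.11 to 2.11, 2.15 and 1.61 CPM in experiment 4, a log2 fold change of -1.01 ± 0.12 (SE; edgeR adjusted p = 3.18e-10), but of -0.27 and -0.26 with untagged and Ago2 knockout inputs as the reference. The other core subunits Eif4a3, Magoh and Rbm8a fell by smaller amounts, at -0.40, -0.38 and -0.22, and Casc3, the peripheral subunit, rose by 0.35. Of 31 tested genes of general cytoplasmic decay (deadenylation, decapping and the exonucleases) 10 rose and 14 fell (32.3% and 45.2%), none by 2-fold, and of 16 microRNA pathway genes 4 rose and 4 fell (25.0% each), with 9 lower against Ago2 knockout inputs.

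Spliced host transcripts of small nucleolar RNAs (snoRNAs) held several of the largest increases. Their introns carry the snoRNAs, while the spliced exons have only short reading frames and are classic NMD substrates. Of 23 listed transcripts 20 were tested, 12 rose and 5 fell (60.0% and 25.0%), and 7 rose by at least 2-fold, against 2.18% of all genes. The summed level of the list was 1349 to 1404 CPM in HA-Tnrc6a and 2602 to 2819 CPM in labelled knockout inputs of experiment 3, and 1013 to 1053 against 2115 to 2188 CPM in experiment 4. The sums did not overlap in either experiment.

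Zfas1 (ENSMUSG00000074578, chromosome 2, 167062934 to 167065862), which holds Snord12, stood at 89.4, 82.8 and 79.9 CPM in HA-Tnrc6a and 427, 442 and 395 CPM in labelled knockout inputs of experiment 3, and at 56.0, 51.2 and 55.6 against 262, 265 and 268 CPM in experiment 4. The log2 fold change was 2.31 ± 0.03 (SE; edgeR adjusted p = 6.53e-43), with 2.33 and 2.29 in the 2 experiments. Snhg5 (ENSMUSG00000097195, chromosome 9, 88521052 to 88522897) went from 86.5, 88.7 and 81.7 to 321, 329 and 319.5 CPM and from 92.2, 89.5 and 94.6 to 320.4, 340.2 and 333 CPM. For both hosts the inputs of the 2 genotypes lay far apart, and Snhg5 rose by 1.88 ± 0.03 (SE; edgeR adjusted p = 2.52e-44).

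A host outside the list had the largest increase of the genes with an average log2 CPM of at least 3. 2410006H16Rik (ENSMUSG00000086841, chromosome 11, 62602877 to 62604806) is a long noncoding RNA gene that contains Snord49a, Snord49b and Snord65. It was at 38.1, 37.1 and 37.9 CPM in HA-Tnrc6a and 186, 178 and 156 CPM in labelled knockout inputs of experiment 3, and at 27.4, 26.1 and 28.1 against 175, 179 and 177 CPM in experiment 4. Its log2 fold change was 2.45 ± 0.03 (SE; edgeR adjusted p = 2.23e-43), larger in experiment 4 (2.7) than in experiment 3 (2.21).

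The other hosts that rose at least 2-fold were Snhg6 at 1.45 ± 0.03, Snhg12 at 1.42 ± 0.03, Snhg1 at 1.19 ± 0.03, Snhg15 at 1.17 ± 0.03 and Epb41l4aos at 1.15 ± 0.04 (log2 fold change ± SE; edgeR adjusted p at most 1.12e-28). Gas5 (ENSMUSG00000053332), which hosts several snoRNAs, rose by 0.79 ± 0.02, from 477, 460.5 and 461 to 772, 772 and 712 CPM in experiment 3 and from 296, 289 and 283 to 519.8, 532 and 559.9 CPM in experiment 4. The other 4 that rose lay between 0.15 and 0.96. The increase was not shared by all hosts. Dancr was at -0.34 ± 0.07 and Snhg4 at -0.20 ± 0.04, both lower, and Snhg3, Snhg20 and Snhg9 did not pass. Bc1, the lowest of the list at -0.81, is a small RNA polymerase III transcript and no snoRNA host. Zfas1 overlaps Znfx1, Gas5 overlaps Zbtb37, and Snhg6 overlaps Mcmdc2 in the annotation.

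**Figure D2:**
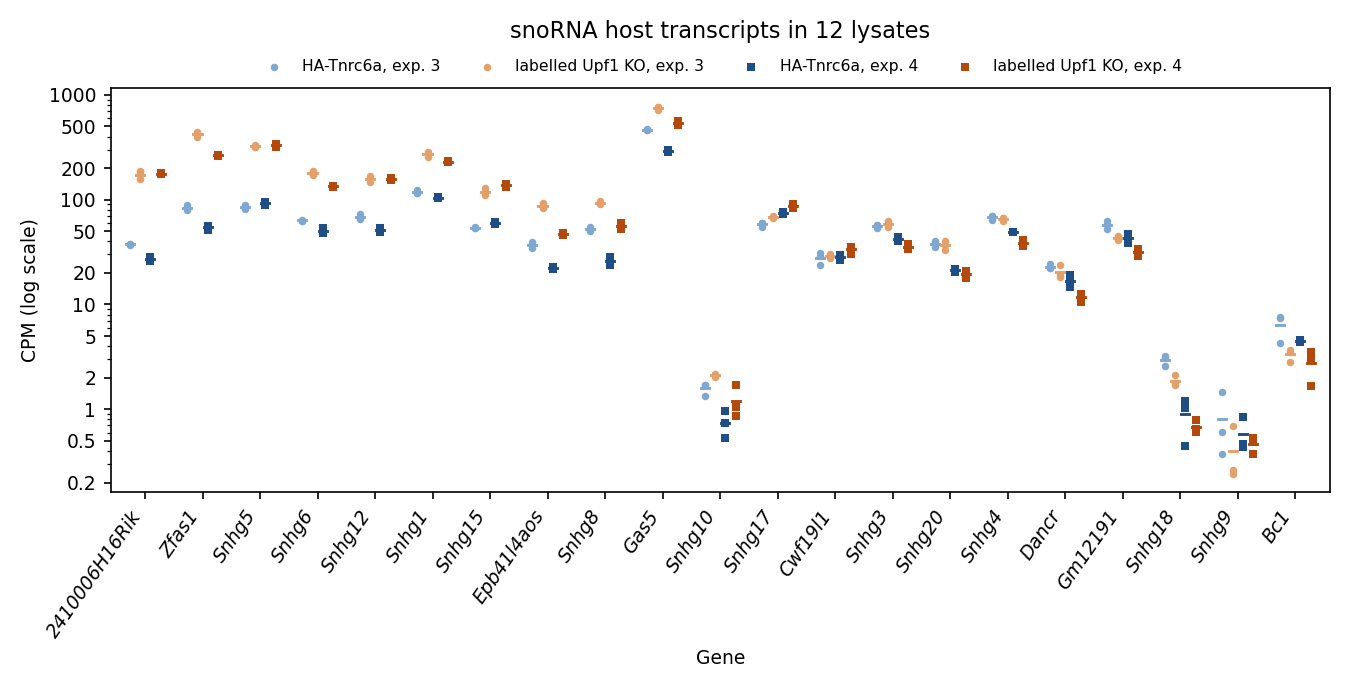
Level of 2410006H16Rik and 20 listed transcripts in each of the 12 inputs, in CPM on a log scale, ordered by log2 fold change. Points are libraries, short lines are group means, circles are experiment 3 and squares experiment 4, and blue is HA-Tnrc6a and orange labelled Upf1 knockout. From 2410006H16Rik to Gas5 all orange points lie above the blue points of the same experiment, and from Snhg3 to Bc1 they do not.

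Messages known from the field as NMD substrates were read as a list of 30, which shares members with the lists of hosts and of stress genes. Of these 17 rose and 7 fell (56.7% and 23.3%), and 6 rose by at least 2-fold (Ddit3, Gadd45b, Snhg12, Atf4, Atf3 and Snhg1). Gadd45b (ENSMUSG00000015312), a stress-inducible activator of p38 and JNK kinase signalling, stood at 11.2, 11.9 and 11.6 CPM in HA-Tnrc6a and 35.7, 33.5 and 37.0 CPM in labelled knockout inputs of experiment 3, and at 6.18, 6.0 and 6.87 against 15.7, 14.5 and 16.8 CPM in experiment 4. All labelled knockout inputs were higher, and the log2 fold change was 1.46 ± 0.06 (SE; edgeR adjusted p = 9.25e-25). Its relatives Gadd45a and Gadd45g rose by 0.53 and 0.58. The groups of Gadd45g overlapped in experiment 4, where its levels were 0.985, 0.901 and 0.675 against 0.958, 0.604 and 1.37 CPM, and it did not pass there or without labelled knockout replicate 3 of experiment 4. The fourth member of the list did not pass.

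Eif4a2, an RNA helicase of translation initiation that also hosts snoRNAs, rose by 0.93 ± 0.02, from 691, 697 and 689 to 1341, 1353 and 1325 CPM in experiment 3 and from 543, 527 and 529.6 to 999, 1012 and 983 CPM in experiment 4 (edgeR adjusted p = 8.92e-36). Ifrd1, a stress-regulated message with an upstream reading frame, rose by 0.61 ± 0.03. Not every listed substrate was higher. The splicing regulator Ptbp2, whose exon-skipped isoform is an NMD substrate, fell by 0.83 on the log2 scale, and the levels of the isoforms are not in gene counts. The ribosomal protein message Rps9 was at -0.14 and the SR protein messages Srsf2 and Srsf3 at -0.29 and -0.08.

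Splicing regulators, many of which control themselves through poison exons, did not move as one. Of 17 SR and SR-like genes 6 rose and 6 fell (35.3% each), led by Srsf4 at 0.49 ± 0.03 and Tra2a at 0.39 ± 0.02. Of 34 hnRNP, PTB and other regulators 8 rose and 25 fell (23.5% and 73.5%, against 29.5% and 29% of all genes), with a median of -0.17. Esrp1 and Mbnl1 fell by at least 2-fold. The muscleblind protein Mbnl1 (ENSMUSG00000027763) went from 10.2, 8.19 and 8.76 to 3.10, 2.64 and 2.29 CPM in experiment 3 and from 14, 13.2 and 12.4 to 6.84, 7.32 and 6.20 CPM in experiment 4, at -1.36 ± 0.09 (edgeR adjusted p = 1.92e-17). Its paralogue Mbnl2 moved the other way, from 23.1, 32.6 and 27.1 to 40.1, 41.6 and 39.4 CPM and from 31.7, 33.5 and 28.6 to 60.7, 55.8 and 60.5 CPM, at 0.74 ± 0.05 (edgeR adjusted p = 1.04e-12). Neither pair of groups overlapped within an experiment. Hnrnph3, which overlaps Rufy2, rose by 0.88 ± 0.04, Rbm39 by 0.55 ± 0.02 and Luc7l by 0.53 ± 0.03.

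Among genes with an average log2 CPM of at least 3 and the same sign in both experiments, the 12 largest increases were those of Zfas1, Snhg5, 2410006H16Rik, Gm27286, Gm28030, Pvt1, Bvht, Rassf1, Rin1, Rapgef3, Nupr1 and Arf2. Arf2 (ENSMUSG00000062421), a small GTPase of the Golgi, stood at 17.1, 17.1 and 18.8 CPM in HA-Tnrc6a and 59.4, 60.6 and 55.8 CPM in labelled knockout inputs of experiment 3, and at 23.8, 21.7 and 22.5 against 65.7, 75.5 and 66.8 CPM in experiment 4, at 1.67 ± 0.04 on the log2 scale (SE; edgeR adjusted p = 6.79e-33). Rassf1, a scaffold of the Hippo pathway, went from 21.1, 18.8 and 19.9 to 63.5, 60.6 and 62.4 CPM and from 15.3, 17.1 and 15.0 to 59.3, 57.0 and 55.9 CPM, at 1.75 ± 0.04 (edgeR adjusted p = 3.61e-34). Neither gene had overlapping groups, and Rassf1 overlaps Gm9917 in the annotation. Pvt1, a long noncoding RNA next to Myc, rose by 1.86 ± 0.05, from 12.3, 12.1 and 13.5 to 37.1, 37.0 and 31.6 CPM in experiment 3 and from 13.8, 12.3 and 12.5 to 66.4, 58.9 and 56.8 CPM in experiment 4, while Myc itself fell to -0.48 ± 0.05.

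Rapgef3, the cAMP sensor Epac1, rose by 1.73 ± 0.04 on the log2 scale, from 8.54, 9.07 and 9.78 to 28.2, 28.3 and 29.4 CPM in experiment 3 and from 33.2, 32.3 and 34.4 to 115, 118 and 116 CPM in experiment 4. Within each experiment its groups lay apart. Rin1, a Ras effector, was at 1.75 ± 0.09. The long noncoding RNA Bvht, which overlaps Carmn, was at 1.78 ± 0.09 (1.12 against untagged inputs), and the predicted genes Gm27286 and Gm28030, which were not matched to the annotation, at 2.32 ± 0.07 and 2.2 ± 0.08 (edgeR adjusted p of these 5 genes between 7.34e-34 and 2.82e-21).

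The integrated stress response couples phosphorylation of eIF2alpha to translation of Atf4, a transcription factor that binds CCAAT enhancer binding protein and ATF response elements near amino acid, tRNA charging and stress genes. Atf4 is itself held down by upstream reading frames, which also make its message an NMD substrate. Promoters of the listed genes were searched for the element, spelled TGATGNAA or, on the other strand, TTNCATCA, in the 300-base windows of RefSeq (GRCm38.p6), which run from 250 bases before to 50 after a gene's start. A match on either strand was present in 3.97% of all 32851 windows and 2.69% of the 12204 tested genes with a window. It was present in 11 of the 32 listed stress genes with a window (34.4%), namely in 6 of 19 that rose, 2 of 8 that fell and 3 of 5 that did not pass. The upstream 250 bases of 3 genes that rose (Nupr1, Pck2 and Atf3) and of 1 with the element that did not pass (Asns) are shown to set the element beside the responses below, 5′ to 3′ on the gene's strand, with the matches in capitals.
Nupr1, chr7:126625471-126625720, minus strand: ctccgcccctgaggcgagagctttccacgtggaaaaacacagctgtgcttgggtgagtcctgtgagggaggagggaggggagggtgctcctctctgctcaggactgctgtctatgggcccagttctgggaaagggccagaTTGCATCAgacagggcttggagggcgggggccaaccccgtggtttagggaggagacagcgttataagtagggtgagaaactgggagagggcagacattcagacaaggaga
Pck2, chr14:55540016-55540265, plus strand: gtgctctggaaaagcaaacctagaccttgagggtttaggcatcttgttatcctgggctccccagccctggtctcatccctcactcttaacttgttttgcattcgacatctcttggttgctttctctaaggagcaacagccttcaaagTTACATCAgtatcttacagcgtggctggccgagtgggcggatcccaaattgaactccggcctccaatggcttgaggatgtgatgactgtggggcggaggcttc
Atf3, chr1:191183334-191183583, minus strand: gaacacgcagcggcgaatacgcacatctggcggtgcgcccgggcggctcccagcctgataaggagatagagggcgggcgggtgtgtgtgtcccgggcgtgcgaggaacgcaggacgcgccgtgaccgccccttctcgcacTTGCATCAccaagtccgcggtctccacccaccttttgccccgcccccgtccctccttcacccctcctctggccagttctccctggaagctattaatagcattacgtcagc
Asns, chr6:7693210-7693459, minus strand: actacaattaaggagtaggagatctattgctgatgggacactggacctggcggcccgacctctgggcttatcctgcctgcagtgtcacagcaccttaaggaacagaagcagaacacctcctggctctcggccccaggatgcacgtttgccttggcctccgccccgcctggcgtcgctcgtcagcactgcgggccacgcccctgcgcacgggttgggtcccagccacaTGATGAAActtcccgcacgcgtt
The first bases of the matches lie 110, 103, 110 and 23 bases before the starts of Nupr1, Pck2, Atf3 and Asns. Among genes at least 2-fold higher in labelled knockout inputs the element was in 5.58% of the 251 genes with a window. Among those at least 2-fold lower it was in 2.55% of 392 such genes, against 2.69% of tested genes. At any fold change the element was in 2.44% of higher and 2.33% of lower genes with a window. The listed stress genes Nupr1, Atf3, Jdp2 and Pck2 are among the 2-fold higher genes that carry it. A match is a description of the sequence only.

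Of the 40 stress response genes tested, 25 rose and 10 fell (62.5% and 25.0%, against 29.5% and 29% of all genes), with a median log2 fold change of 0.25. The effect differed between experiments for 13 of them, against 11.6% of all genes, and 5 had opposite signs. Atf4 (ENSMUSG00000042406) stood at 221, 217 and 214 CPM in HA-Tnrc6a and 618, 628 and 603 CPM in labelled knockout inputs of experiment 3, and at 253, 251 and 261 against 570.1, 571 and 558 CPM in experiment 4. No labelled knockout input came near the HA-Tnrc6a inputs, and Atf4 rose by 1.33 ± 0.02 on the log2 scale (SE; edgeR adjusted p = 5.05e-41). Ddit3 (ENSMUSG00000025408), which encodes the pro-death factor CHOP downstream of Atf4, went from 17.9, 19.5 and 17.7 to 42.1, 44.7 and 44.2 CPM and from 16.6, 14.6 and 17.0 to 57.8, 59.3 and 60.0 CPM, at 1.56 ± 0.05 (edgeR adjusted p = 3.41e-31). It overlaps Mars1 and Mbd6 in the annotation. The effect on Ddit3 was larger in experiment 4, where Atf4 rose less than in experiment 3.

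Nupr1 (ENSMUSG00000030717), a stress-induced chromatin protein, had the largest increase of the list, from 26.4, 30.3 and 29.0 to 89.0, 97.3 and 90.7 CPM in experiment 3 and from 28.0, 28.9 and 29.1 to 93.7, 92.8 and 84.7 CPM in experiment 4, at 1.67 ± 0.04 (edgeR adjusted p = 6.37e-36). It overlaps the long noncoding gene Gm39087. Atf3 rose by 1.23 ± 0.11, its dimerization partner Jdp2 by 1.13 ± 0.07, and Pck2, the mitochondrial phosphoenolpyruvate carboxykinase, by 1.03 ± 0.04. Ppp1r15a, the phosphatase subunit that reverses eIF2alpha phosphorylation, was at 1.0 ± 0.04, Trib3, an inhibitor of Atf4, at 0.93 ± 0.04, and the secreted factor Gdf15 at 0.73 ± 0.08 (edgeR adjusted p of these 6 genes at most 9.59e-11). For each of them the groups did not overlap within an experiment, and groups lay apart in the same direction in both experiments for 35.9% of all genes.

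Several amino acid genes of the list were not higher. Asns, the asparagine synthetase, stood at 497, 513 and 516 CPM against 423, 422 and 442 CPM in experiment 3 and at 479, 485 and 499 against 561, 574 and 574 CPM in experiment 4, lower in the labelled knockout inputs of the first and higher in those of the second. Its average of -0.01 ± 0.02 did not pass (edgeR adjusted p = 0.704). The alanyl tRNA synthetase Aars was at -0.00 ± 0.02 (edgeR adjusted p = 0.928). The serine synthesis genes Phgdh, Psat1 and Psph fell slightly, at -0.22, -0.18 and -0.24, and the cystine transporter Slc7a11 fell to -0.75 ± 0.14. Ddr2, a collagen receptor, was the lowest of the list at -1.88 ± 0.17, on levels of at most 8.79 CPM, and stood at -0.49 against untagged inputs.

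**Figure D3:**
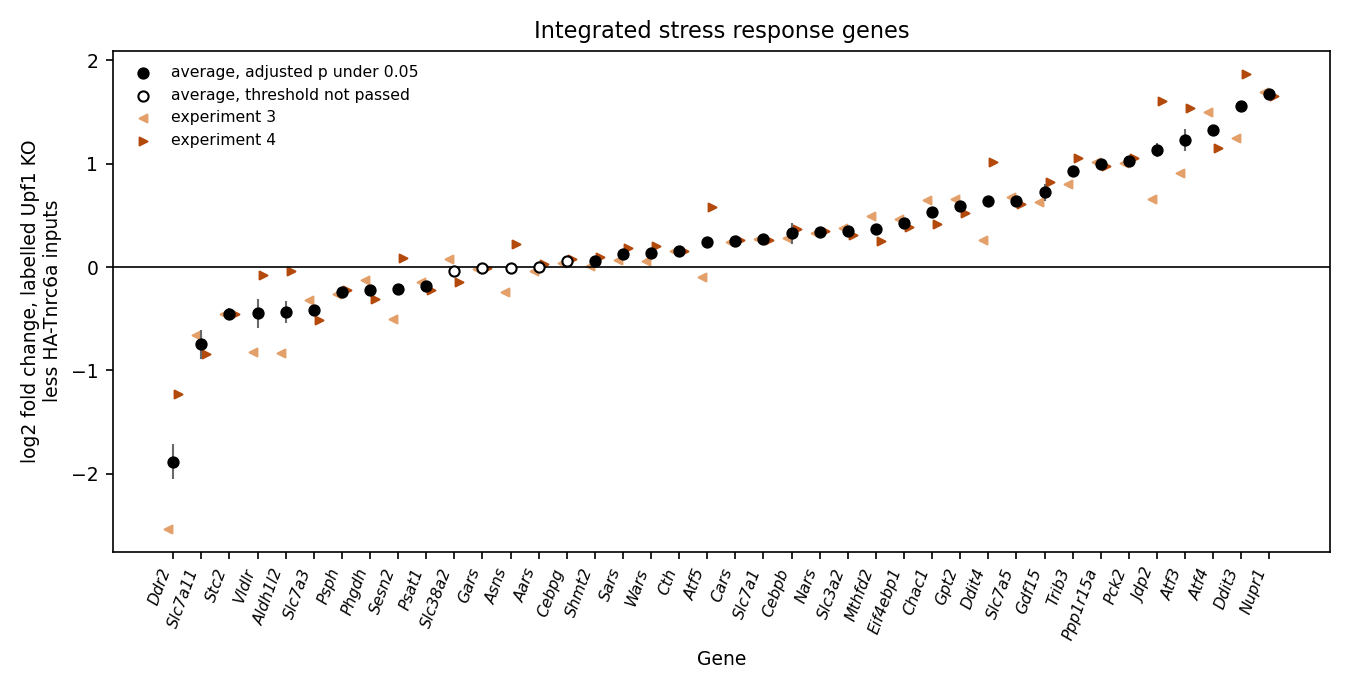
Log2 fold change (labelled Upf1 knockout less HA-Tnrc6a inputs) of 40 integrated stress response genes, in rising order. Large circles are the average of both experiments with SE bars, filled where the adjusted p is under 0.05, and triangles are the values of each experiment. Nupr1, Ddit3, Atf4, Atf3, Jdp2 and Pck2 lie above 1, and Asns has its 2 experiments on opposite sides of 0.

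Of 22 genes of the endoplasmic reticulum unfolded protein response 8 rose and 6 fell, none by 2-fold, and the sensor Ern1 was at 0.47 ± 0.07. This count turned on the reference and the experiment, with 13 higher and 0 lower against untagged inputs, 6 and 7 against Ago2 knockout inputs, and 12 and 4 in experiment 4 alone. Of 15 heat shock genes 4 rose and 7 fell, and 11 fell with either untagged or Ago2 knockout inputs as the reference. Hspb8 (ENSMUSG00000041548), a small heat shock protein of selective autophagy, rose from 28.7, 33.1 and 30.5 to 78.5, 70.8 and 72.4 CPM in experiment 3 and from 22.4, 20.9 and 21.4 to 72.7, 65.7 and 65.8 CPM in experiment 4, at 1.46 ± 0.04 (SE; edgeR adjusted p = 4.25e-32). The folding machines Hspa8, Hspd1 and Hspe1 fell by 0.31, 0.22 and 0.33 on the log2 scale.

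Targets of p53 gave opposite pictures in the 2 experiments. Averaged, 13 of 34 tested rose and 10 fell (38.2% and 29.4%). In experiment 3, 7 rose and 17 fell, against 45.8% of all genes that passed there (23.5% higher and 22.3% lower), and in experiment 4, 20 rose and 4 fell, against 49.8% (25.8% and 24%). Of the list, 22 members (against 11.6% of all genes) differed between experiments in the edgeR interaction test, and 18 had opposite signs. The count also turned on the reference, with 6 higher and 17 lower against untagged inputs and 15 higher and 11 lower against Ago2 knockout inputs. Ccng1, a direct p53 target, fell from 175, 167 and 166 to 118, 118 and 119.6 CPM in experiment 3 and rose from 188, 194 and 201 to 217, 228 and 219.9 CPM in experiment 4. Trp53inp1, a p53-induced pro-death factor, went from 161, 159.8 and 152 to 132, 137 and 139 CPM and from 124, 129 and 126 to 174, 169 and 172 CPM. Cdkn1a, the cell cycle inhibitor p21, was at -0.07 ± 0.04 and did not pass (edgeR adjusted p = 0.138).

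Among 27 apoptosis genes 10 rose and 11 fell. Hrk, a pro-death BH3-only protein, rose by 1.13 ± 0.08. The initiator Casp9, which overlaps Cela2a, rose by 1.03 ± 0.05, from 20.4, 23.5 and 21.2 to 45.2, 40.9 and 46.0 CPM in experiment 3 and from 18.4, 19.4 and 17.9 to 39.8, 36.9 and 37.1 CPM in experiment 4 (edgeR adjusted p = 1.64e-23). Bcl2, the survival factor, fell to -1.45 ± 0.38 on levels of at most 1.53 CPM. Of 29 cell cycle regulators 7 rose and 14 fell. Ccnd2, a G1 cyclin, was lowest at -1.70 ± 0.13 (-0.88 against untagged and -3.02 against Ago2 knockout inputs), followed by the CDK inhibitor Cdkn1c at -1.38 ± 0.07 and Mycn at -0.90 ± 0.03. Mycn went from 142, 146 and 154 to 83.1, 84.7 and 89.5 CPM in experiment 3 and from 129, 124 and 123 to 61.8, 60.2 and 63.6 CPM in experiment 4, without overlap.

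Core pluripotency messages were modestly lower. Of 11 tested 2 rose and 7 fell (18.2% and 63.6%). Pou5f1 (ENSMUSG00000024406), which encodes Oct4, stood at 1686, 1702 and 1722 CPM in HA-Tnrc6a and 1305, 1260 and 1269 CPM in labelled knockout inputs of experiment 3, and at 1785, 1782 and 1789 against 1447, 1457 and 1399 CPM in experiment 4, at -0.37 ± 0.02 (SE; edgeR adjusted p = 6.33e-21). Sox2 was at -0.33 ± 0.02 and Sall4 at -0.46 ± 0.02. In each experiment every labelled knockout input lay below the HA-Tnrc6a inputs for all 3 genes (groups lay apart in the same direction in both experiments for 35.9% of all genes).

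Naive state genes were split, with 7 of 20 higher and 9 lower. Klf2 (ENSMUSG00000055148), a transcription factor of the naive state, fell most, from 362, 376 and 352 to 175, 192 and 190 CPM in experiment 3 and from 316, 282 and 286 to 114, 107 and 112 CPM in experiment 4, at -1.19 ± 0.03 (SE; edgeR adjusted p = 7.22e-31). Zfp42, also called Rex1, was at -0.45 ± 0.02 and Nanog at -0.20 ± 0.02, while Esrrb rose by 0.16 ± 0.02 and the secreted phosphoprotein Spp1 by 0.60 ± 0.03. With Ago2 knockout inputs as the reference Esrrb and Spp1 stood at -0.03 and -0.03, and with untagged inputs Nanog stood at 0.01. Genes of the primed or formative epiblast were more often lower than higher, with 3 of 14 higher and 8 lower (21.4% and 57.1%). Their summed level was not lower. It was 1063 to 1117 CPM in HA-Tnrc6a and 1099 to 1121 CPM in labelled knockout inputs of experiment 3, and 1328 to 1342 against 1383 to 1406 CPM in experiment 4. Lef1, a nuclear partner of beta-catenin, was the lowest of the list at -2.44 ± 0.16, with Sox3 at -1.65 ± 0.18, the cadherin Cdh2 at -1.0 ± 0.16 and Pou3f1 at -0.89 ± 0.11. Cdh2 and Pou3f1 had levels of at most 4.61 and 9.01 CPM, and Lef1 was at 0.198, 0.0755 and 0.295 CPM in labelled knockout inputs of experiment 4. Of 22 listed genes of the 2-cell-like state 4 could be tested, and 0 passed an adjusted or an unadjusted p of 0.05 in edgeR and 0 in DESeq2. Within the joint fit 1 was lower in experiment 3, 3 were lower with Ago2 knockout inputs as the reference, and 1 was lower without HA-Tnrc6a replicate 3 or labelled knockout replicate 2 of experiment 4.

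Lineage genes were checked because a culture can hold differentiated cells, and in bulk lysates more cells of a type cannot be told apart from more RNA per cell. Endoderm genes depended on the experiment and on the reference. Averaged, 4 of 23 rose and 14 fell, but in experiment 3, 2 rose and 19 fell, and in experiment 4, 12 rose and 3 fell. The summed level of the 23 genes was 1344 to 1495 CPM in HA-Tnrc6a and 1070 to 1143 CPM in labelled knockout inputs of experiment 3, and 1493 to 1569 against 1852 to 1925 CPM in experiment 4. Untagged inputs of experiment 3 were at 980.9 to 1024 CPM and Ago2 knockout inputs at 1101 to 1165 CPM on a scale set over all 24 inputs, where HA-Tnrc6a inputs had 1323 to 1471 CPM. With untagged inputs as the reference 8 endoderm genes rose and 2 fell, and with Ago2 knockout inputs 17 rose and 3 fell, so the averaged direction depended on the reference.

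Gata6 (ENSMUSG00000005836), a factor of primitive endoderm, stood at 3.42, 5.08 and 5.00 CPM in HA-Tnrc6a and 3.36, 2.41 and 3.32 CPM in labelled knockout inputs of experiment 3, where the groups did not overlap, and at 8.47, 6.74 and 7.17 against 21.1, 21.0 and 18.7 CPM in experiment 4. The collagen IV genes Col4a1 and Col4a2, which encode basement membrane, followed the same course. Col4a1 fell from 116, 115 and 113 to 34.4, 32.1 and 34.4 CPM in experiment 3 and rose from 96.2, 102 and 89.4 to 155, 156 and 142 CPM in experiment 4, and Col4a2 had log2 fold changes of -1.96 and 0.69. These 3 genes had the largest positive differences between experiments among genes above the level used for naming, 2.01 for Gata6, 2.42 for Col4a1 and 2.65 for Col4a2 (edgeR interaction adjusted p at most 2.75e-10). Dab2, an endocytic adaptor of endoderm, was lower in both, at -2.10 and -0.40, but at 1.48 with Ago2 knockout inputs as the reference. In the opposite direction the largest differences were those of Gm45507 at -1.59, the junctophilin Jph4 at -1.57 and Crmp1, a cytoskeletal protein of growing axons, at -1.53. Crmp1 rose from 17.9, 19.9 and 16.9 to 31.6, 32.9 and 29.7 CPM in experiment 3 and fell from 14.6, 13.1 and 14.5 to 8.29, 7.85 and 8.99 CPM in experiment 4.

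**Figure D4:**
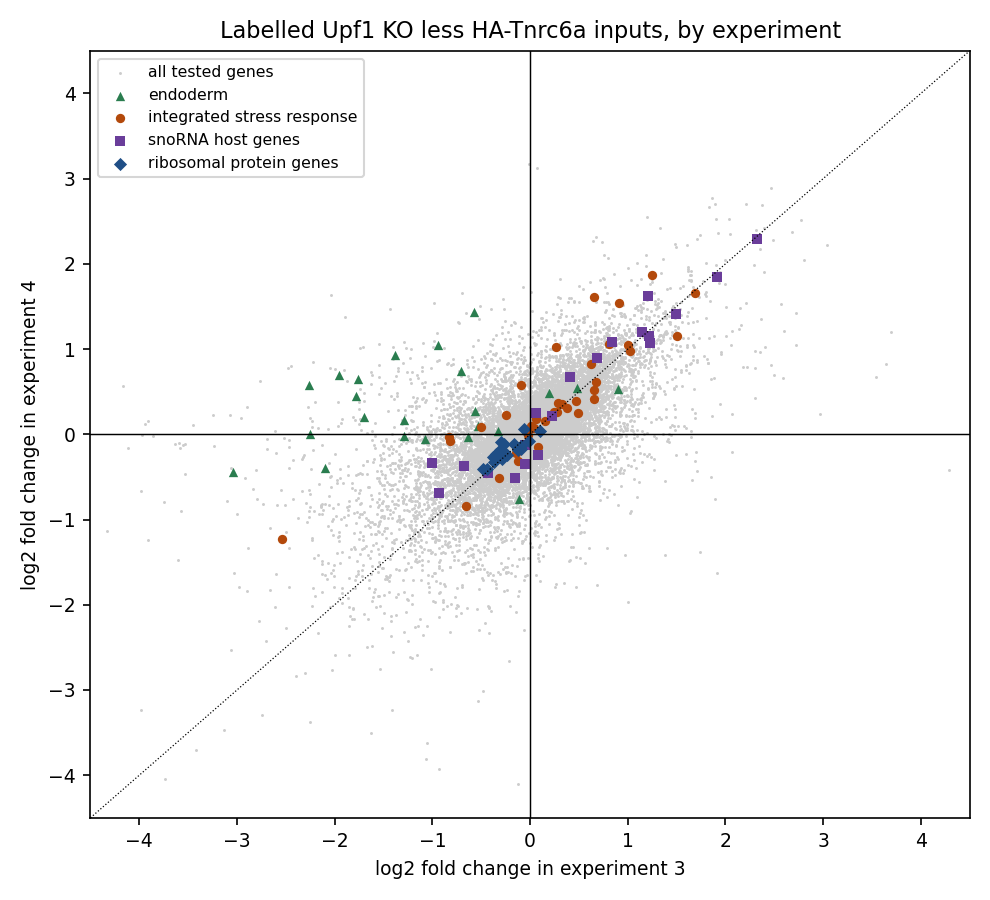
Log2 fold change (labelled Upf1 knockout less HA-Tnrc6a inputs) in experiment 4 against that in experiment 3. Grey points are the 19444 tested genes, of which 8 lie outside the axes, the dotted line marks equal effects, and coloured symbols are members of 4 lists. The effect differed between experiments for 3 of 25 ribosomal protein genes, 5 of 20 snoRNA hosts and 13 of 40 stress response genes, against 11.6% of all genes. Most endoderm genes lie above the line.

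Mesoderm genes had 5 of 15 higher and 2 lower (33.3% and 13.3%). They summed to 90.8 to 96.1 CPM in HA-Tnrc6a and 116.1 to 125 CPM in labelled knockout inputs of experiment 3, and to 102 to 104 against 149.9 to 157 CPM in experiment 4. On a scale set over all 24 inputs, Ago2 knockout inputs of experiment 3 (116.7 to 117.1 CPM) lay within the range of labelled Upf1 knockout inputs (115.2 to 123 CPM). In experiment 4 the Ago2 knockout inputs were at 95.58 to 97.56 CPM. With Ago2 knockout inputs as the reference 4 mesoderm genes rose and 4 fell, and with untagged inputs 4 rose and 1 fell. Cdx1, a homeobox factor of the posterior axis, rose by 1.25 ± 0.08 and Eomes, a T-box factor, by 0.88 ± 0.08. With untagged inputs as the reference Cdx1 stood at 0.56. Of 11 neuroectoderm genes 2 rose and 7 fell, and they summed to 561.9 to 577.4 CPM in HA-Tnrc6a and 507.9 to 518.5 CPM in labelled knockout inputs of experiment 3, and to 492.2 to 503.8 against 399.4 to 412 CPM in experiment 4, with Nes at -0.55 ± 0.10 and Elavl3 at 0.99 ± 0.09 (0.29 against untagged inputs). Trophoblast (4 of 12 higher, 5 lower) and fibroblast lists (3 of 7 higher, 2 lower) summed to at most 166 and 75.8 CPM in any input. The part of such cells in the results was not tested.

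The largest decreases lay in genes of varied roles. Esrp1 (ENSMUSG00000040728, chromosome 4, 11331933 to 11386783), an epithelial splicing regulator, stood at 29.5, 31.1 and 25.4 CPM in HA-Tnrc6a and 5.83, 5.23 and 5.19 CPM in labelled knockout inputs of experiment 3, and at 5.40, 6.91 and 5.43 against 1.25, 0.566 and 0.644 CPM in experiment 4. The level differed between the experiments, but within each the groups lay far apart, at -2.62 ± 0.11 on the log2 scale (SE; edgeR adjusted p = 1.25e-24). With Ago2 knockout inputs as the reference Esrp1 stood at -1.52. Of a mixed list of 24 epithelial and mesenchymal genes 11 fell and 7 rose. The epithelial factor Grhl2 was at -1.80 ± 0.10, the tight junction genes Cldn7 and Ocln at -1.49 ± 0.14 and -1.48 ± 0.13, and Epcam at -0.72 ± 0.04, while Cdh1, which encodes E-cadherin, fell by 0.21 on the log2 scale and the tight junction gene Cldn4 rose by 0.51 ± 0.05. With Ago2 knockout inputs as the reference Cldn7 stood at -0.02. On the mesenchymal side Tagln rose by 0.70 ± 0.12 (-0.14 with untagged inputs as the reference), Zeb1 by 0.56 ± 0.06 and Vim by 0.43 ± 0.02, whereas Cdh2, which encodes N-cadherin, fell to -1.0 ± 0.16. Vim stood at -0.03 with Ago2 knockout inputs as the reference.

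Scml2 (ENSMUSG00000000037), a Polycomb group protein, fell from 19.3, 19.3 and 22.5 to 2.73, 3.51 and 3.92 CPM in experiment 3 and from 10.8, 10.9 and 10.9 to 3.37, 3.96 and 3.25 CPM in experiment 4, at -2.12 ± 0.09 (SE; edgeR adjusted p = 2.15e-25). Egr1 (ENSMUSG00000038418), an immediate early gene of ERK signalling, fell from 94.2, 104 and 115 to 20.9, 22.9 and 23.3 CPM and from 159, 160.4 and 147 to 45.2, 44.7 and 43.6 CPM, at -2.01 ± 0.04 (edgeR adjusted p = 5.32e-34). Neither gene had overlap among the 12 inputs. The reference was itself high for Scml2 in experiment 3: on a scale set over all 24 inputs it stood at 6.13 to 8.0 CPM in untagged and 7.50 to 8.58 CPM in Ago2 knockout inputs of experiment 3, against 18.99 to 22.12 CPM in HA-Tnrc6a inputs. In experiment 4 Ago2 knockout inputs, at 12.09 to 13.36 CPM, were above HA-Tnrc6a inputs, at 10.65 to 10.79 CPM, and labelled Upf1 knockout inputs were the lowest group in both experiments. Its log2 fold change was -1.03 against untagged and -1.58 against Ago2 knockout inputs, and that of Egr1 was -1.41 against untagged inputs. Of 20 tested genes of the ERK response, a list made after values were seen, 5 rose and 7 fell, with 3 and 9 against untagged and 9 and 6 against Ago2 knockout inputs.

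Calb2, a calcium-binding protein, was at -2.33 ± 0.07, the transglutaminase Tgm3 at -1.98 ± 0.09 (-0.97 against untagged inputs), the muscle actinin Actn3 at -1.92 ± 0.09 and Crabp1, a retinoic acid carrier, at -1.62 ± 0.06. Crabp1 went from 51.0, 52.9 and 48.5 to 17.0, 15.5 and 13.8 CPM in experiment 3 and from 23.6, 24.4 and 24.5 to 9.09, 7.88 and 8.05 CPM in experiment 4, with like changes in both. Hdgfl3, the neuronal growth protein Gap43, the myelin gene Mobp, Meioc and Bcl6b completed the 12 largest decreases, between -1.57 and -1.4 (edgeR adjusted p of these 9 genes at most 1.26e-17). Meioc is a factor of meiotic prophase, and in a list of germline genes, also made after values were seen, 4 of 35 rose and 20 fell, 10 by at least 2-fold. On a scale set over all 24 inputs this list summed to 839.6 to 858.9 CPM in HA-Tnrc6a, 693.7 to 722.2 in labelled Upf1 knockout, 726.6 to 760.1 in untagged and 626.7 to 649.7 CPM in Ago2 knockout inputs of experiment 3. The sums were 671.5 to 680.8, 589.2 to 609.5, 593.3 to 614.6 and 628.2 to 650.1 CPM in experiment 4, so HA-Tnrc6a inputs were the highest group in both. With Ago2 knockout inputs as the reference 9 rose and 17 fell, and with untagged inputs 5 rose and 19 fell. Among those that fell were the piRNA-pathway gene Piwil4 at -1.83 ± 0.11, the synaptonemal genes Sycp2 and Syce1 at -1.58 ± 0.18 and -1.25 ± 0.06, and Tdrd1 at -1.33 ± 0.22, whereas the recombinase Dmc1 rose by 0.92 ± 0.08 and Sycp3 by 0.66 ± 0.07.

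Ribosomal protein messages fell as a group by a small amount. Of 25 tested 22 fell and 1 rose (88.0% and 4.0%), with a median log2 fold change of -0.25 and none at 2-fold, and their summed level was 33260 to 34200 CPM in HA-Tnrc6a and 27620 to 28950 CPM in labelled knockout inputs of experiment 3, and 26820 to 28450 against 24130 to 24680 CPM in experiment 4. The listed genes span 816 to 6256 bases in the authors' length column, and when all tested genes were split into 4 equal groups by that length, the shortest group had a median of -0.13 and the longest 0.02. The part of length in the result was not tested. Glycolysis and hypoxia genes also fell, 15 of 22 (68.2%) against 3 that rose, with Ldha at -0.49 ± 0.02, Pgk1 at -0.48 ± 0.02 and the mitophagy receptor Bnip3 at -1.06 ± 0.03, which differed between experiments (-0.35 and -1.76). Of the glycolysis and hypoxia genes 0 fell when the term for the experiment was left out, and 11 fell and 8 rose with Ago2 knockout inputs as the reference. Cholesterol synthesis genes had 10 of 22 higher and 5 lower, and Pmvk, the phosphomevalonate kinase, rose most at 0.92 ± 0.04.

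Of 22 imprinted genes 5 rose and 11 fell. Dlk1, a Notch ligand, was at -1.58 ± 0.15 and H19 at -0.79 ± 0.11 (0.07 with untagged inputs as the reference), and Peg10, a retrotransposon-derived gene, rose by 0.77 ± 0.02, from 114, 118 and 119 to 230.4, 237 and 248 CPM in experiment 3 and from 349, 349 and 329.5 to 496, 473 and 504 CPM in experiment 4. Of 12 nuclear long noncoding RNAs 6 rose and 5 fell. Neat1, the scaffold of paraspeckles, rose by 0.78 ± 0.03, from 109.8, 108 and 100.3 to 179, 199.6 and 175 CPM and from 53.7, 51.7 and 50.6 to 88.8, 86.0 and 91.2 CPM, while its neighbour Malat1 fell to -0.37 ± 0.05. Of 12 DNA methylation genes 2 rose and 6 fell, none by 2-fold. Of 15 mitochondrially encoded genes 2, both ribosomal RNAs, could be tested, and 0 passed an adjusted or an unadjusted p of 0.05 in edgeR and 0 in DESeq2. Both were higher without the library that stood apart and in experiment 4 alone, and 1 was higher with untagged or Ago2 knockout inputs as the reference. That library gave 0.0789% of its counts to them, against 0.0150% and 0.0185% in the other replicates of its group.

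**Figure D5:**
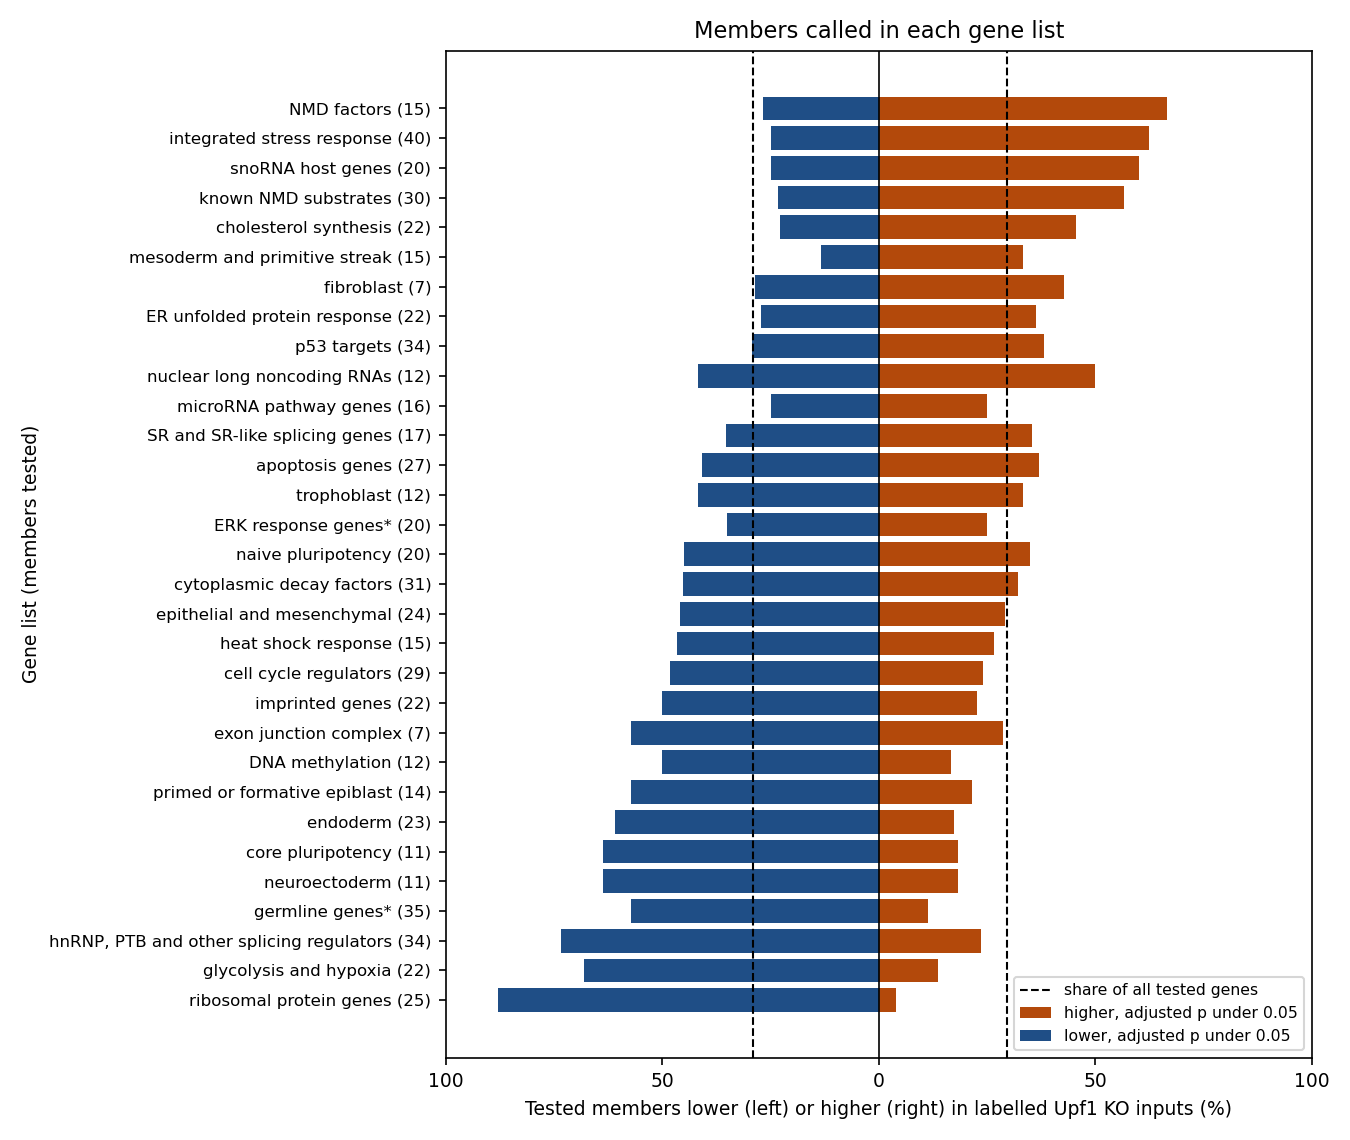
Share of the tested members of each gene list that was higher (right, orange) or lower (left, blue) in labelled Upf1 knockout inputs at an adjusted p under 0.05, with the number tested in brackets. Dashed lines mark the shares of all tested genes, 29.5% and 29%, and asterisks mark lists made after values were seen. The other lists were also chosen with earlier results of these data known. Lists with at least 7 tested members are drawn, ordered by the share higher less the share lower, so the Gadd45 family (3 of 4 higher) is not shown, nor are the stem cell markers used to check identity. NMD factors, stress response genes, snoRNA hosts and NMD substrates are at the top, and ribosomal protein genes at the bottom.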

How the data were processed

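RNA from 12 input lysates was sequenced from stranded total RNA libraries, per the labels' protocols. The authors deposited raw counts per gene, with gene length in bases as another column. Per the submitters' processing notes, builds were GRCm38/mm10 and tools bcl2fastq 2.20 and STAR 2.7.3a, and the counting strand is not given in the sources used here. The table's 48 scaled columns were not used. Of 20171 genes, 19444 passed filterByExpr (minimum count 10). Counts were TMM-normalised and fitted in R 4.3.3 with edgeR 4.0.16 (glmQLFit, glmQLFTest) over 4 groups, 3 libraries each. The contrast was taken within each experiment and averaged, with Benjamini-Hochberg adjustment over all genes, and their difference was the interaction. Each SE is the absolute log2 fold change divided by the square root of the quasi-likelihood F statistic. It is thus moderated across genes and is not a standard error computed directly over the inputs of a group. CPM values use TMM library sizes. Symbols came from the table (16427) or reference (3725), and 19 genes had none. Named genes were Upf1, Tnrc6a and Ago2, the 12 largest changes per direction with the same sign in both experiments and average log2 CPM of at least 3, 3 interaction genes per direction, and list members, largest first, with some smaller ones added for their role. Members and lists were chosen with earlier results of these data known. The fit was tested on simulated data. Alternatives included DESeq2 1.42.0. Some listed genes are counted in their lists but not reported singly here.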

Additional observations from a re-analysis of the deposited data

Results flagged for a closer look

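The effect of the label differed between the experiments for 58 of the 148 named genes by the edgeR interaction test at an adjusted p of 0.05 (11.6% of all genes). The named genes include 3 per direction chosen for the largest such difference and others chosen for large changes. Their share therefore cannot be set directly against that of all genes. The differences are given as the log2 fold change in experiment 4 less that in experiment 3. In 8 genes the sign was opposite: Crmp1 (-1.53), Snhg3 (-0.32), Asns (0.47), Trp53inp1 (0.65), Ccng1 (0.70), Gata6 (2.01), Col4a1 (2.42) and Col4a2 (2.65).

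Among genes with the same sign in both experiments, the value in experiment 4 was higher for Rbm39 (0.17), Luc7l (0.18), Gas5 (0.20), Esrrb (0.23), Mbnl2 (0.37), Hspb8 (0.39), Snhg12 (0.42), Egr1 (0.42), Meioc (0.46), 2410006H16Rik (0.49), Ddit3 (0.62), Syce1 (0.62), Pvt1 (0.75), Piwil4 (0.75), Hdgfl3 (0.77), Mbnl1 (0.78), Pmvk (0.83), Eomes (0.87), Gm27286 (0.91), Jdp2 (0.96), Scml2 (0.96), H19 (1.10), Ddr2 (1.31), Calb2 (1.4) and Dab2 (1.70). It was lower for Lef1 (-2.74), Gm45507 (-1.59), Jph4 (-1.57), Actn3 (-1.42), Bnip3 (-1.41), Cdkn1c (-1.25), Gap43 (-1.17), Ccnd2 (-1.10), Mobp (-1.06), Grhl2 (-1.03), Bcl6b (-0.70), Peg10 (-0.51), Ifrd1 (-0.49), Epcam (-0.45), Klf2 (-0.43), Vim (-0.40), Gadd45a (-0.38), Atf4 (-0.35), Snhg4 (-0.29), Srsf2 (-0.24), Nanog (-0.24), Mycn (-0.24), Phgdh (-0.18), Pgk1 (-0.16) and Ldha (-0.15). For genes that fell in both, a positive difference is a smaller decrease in experiment 4. These are 1 set of libraries per experiment, so a difference between experiments cannot be told apart from one between their cultures or libraries.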

How the results depend on the processing

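The count of 11388 genes was 11405 with RLE size factors, 11292 with library totals only, 11472 without the count filter, 10992 in a fit of all 24 inputs, 10956 with DESeq2 and 10926 to 11108 when 1 library was left out. It was 5914 without a term for the experiment, and 1026 for changes of at least 2-fold. With untagged or Ago2 knockout inputs as the reference, alternatives added after seeing the data, it was 10517 and 12006. The interaction count of 2253 was 2281, 2387, 2235, 1578 and 2072 under the first 5 of these, and 1856 to 2174 when 1 library was left out, and library totals lowered the share of effects higher in experiment 4 to 33.6%. Of the genes past the threshold in the averaged contrast, 50.4% were higher. That share was 57.5% with library totals only, 48.7% with RLE size factors and 48.9% with DESeq2. Same-numbered libraries did not deviate together (mean r 0.0151, range -0.0118 to 0.0371). This does not settle whether the numbers pair samples, and a replicate block gave 11541 and 2578 calls. Of 148 named genes 128 kept their direction in all alternatives. The sign of the log2 fold change turned for the others as follows, and the cause was not tested. With Ago2 knockout inputs as the reference it was -0.035 for Esrrb, 1.48 for Dab2, -0.026 for Vim, -0.64 for Crmp1, -0.032 for Spp1, 0.019 for Asns, 1.4 for Col4a1, 1.32 for Col4a2, 0.0066 for Aars, 0.0091 for Snhg3, 0.049 for Snhg20 and 0.095 for Snhg4. With untagged inputs it was 0.069 for H19, 0.0093 for Nanog, -0.071 for Trp53inp1, 0.17 for Col4a1, 0.14 for Col4a2, 0.072 for Snhg3 and -0.14 for Tagln. In experiment 3 alone it was -0.57 for Gata6, -0.21 for Trp53inp1, 0.0071 for Tnrc6a and 0.078 for Snhg3. In experiment 4 alone it was 0.19 for Ccng1, 0.045 for Cdkn1a, -0.74 for Crmp1, 0.22 for Asns, 0.65 for Col4a1, 0.69 for Col4a2 and 0.027 for Aars. With library totals only it was 0.031 for Asns, 0.039 for Aars and 0.015 for Tnrc6a. Without an experiment term it was 0.0038 for Asns and 0.0013 for Aars. In the fit of all 24 inputs it was 0.0024 for Aars. Leaving out 1 library gave -0.0059 to 0.057 for Crmp1 and -0.013 to 0.012 for Aars, neither of which passed. The lower totals of experiment 3 limit the least abundant genes, such as Bcl2.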
